A study of Mus musculus with 242 samples.

Results

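N-Methylolacrylamide, a reactive derivative of acrylamide used to cross-link resins and textiles, was given to 4 female B6C3F1 mice, and RNA of their livers was measured on 4 of the 242 arrays of the series. These 4 arrays were taken by their treatment label, and each stands for 1 mouse. The mice received 50 mg/kg in 5 ml/kg distilled water by gavage, once a day on 5 days a week for 13 weeks, and the labels give their age as 18 weeks. The 4 arrays of the water control set whose titles carry the code WCO1 received distilled water in the same volume and schedule. A second water set of 4 arrays, coded CCO3 in its titles, and 4 arrays of mice given 2-Chloromethylpyridine hydrochloride (250 mg/kg in distilled water, the same schedule) served as further groups. The CCO3 set is labelled distilled water, although the other sets whose codes begin with CCO are labelled corn oil, so its vehicle rests on that label alone. All 16 mice were females of 1 hybrid strain, labelled with 1 gavage vehicle, and a single dose of N-methylolacrylamide was measured, so no dose response can be given. Pieces of 3 lobes of each liver were pooled before RNA was extracted, so the values are of whole liver tissue. The series asks how short exposures of mice to chemicals with known outcomes in long-term cancer studies are reflected in gene expression.

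N-Methylolacrylamide is known from long-term gavage studies in mice as a chemical that raised the incidence of liver and lung tumours. Its acrylamide end is electrophilic and binds thiols, its methylol group can release formaldehyde, and acrylamide itself is oxidised by Cyp2e1 to the epoxide glycidamide, which binds DNA. In liver, electrophiles of this kind are conjugated to glutathione by the glutathione S-transferases (Gst genes), epoxides are opened by epoxide hydrolase 1 (Ephx1), and the transcription factor NRF2, released from its thiol sensor KEAP1 by electrophiles, raises many genes of both kinds through antioxidant response elements.

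The promoters of 4 glutathione transferase genes are printed to show what sequence lies ahead of the genes that the results turn on. Gsta2 and Gstm2 stood furthest above the WCO1 controls among the transferases whose groups did not overlap, and Gsta3 and Gstm5 are family members with an antioxidant response element core in this window and smaller differences. Each line holds the 250 bases before the RefSeq start site in build GRCm38.p6, 5′ to 3′ on the gene's strand, with the core TGACNNNGC in capitals where it was found on either strand.
Gsta2, chr9:78347146-78347395 (minus strand): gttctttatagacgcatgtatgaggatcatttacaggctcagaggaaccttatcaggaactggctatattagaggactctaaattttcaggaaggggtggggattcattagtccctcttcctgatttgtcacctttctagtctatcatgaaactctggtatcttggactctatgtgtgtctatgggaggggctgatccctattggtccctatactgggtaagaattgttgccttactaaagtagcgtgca
Gstm2, chr3:107986421-107986670 (minus strand): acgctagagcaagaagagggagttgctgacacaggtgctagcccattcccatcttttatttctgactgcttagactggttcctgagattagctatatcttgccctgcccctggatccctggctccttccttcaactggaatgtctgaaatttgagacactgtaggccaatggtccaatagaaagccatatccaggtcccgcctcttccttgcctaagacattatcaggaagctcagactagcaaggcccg
Gsta3, chr1:21240335-21240584 (plus strand): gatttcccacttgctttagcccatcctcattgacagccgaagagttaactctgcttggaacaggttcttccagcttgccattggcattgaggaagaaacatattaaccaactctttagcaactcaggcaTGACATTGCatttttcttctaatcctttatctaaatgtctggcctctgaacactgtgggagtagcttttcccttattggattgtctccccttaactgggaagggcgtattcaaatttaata
Gstm5, chr3:107895604-107895853 (plus strand): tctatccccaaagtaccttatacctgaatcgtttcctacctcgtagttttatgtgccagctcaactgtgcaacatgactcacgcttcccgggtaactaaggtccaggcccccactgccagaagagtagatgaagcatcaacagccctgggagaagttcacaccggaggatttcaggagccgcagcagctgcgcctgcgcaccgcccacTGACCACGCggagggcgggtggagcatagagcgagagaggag
The core was looked for over the 250 bases before and the 50 bases after each start, on both strands. It was present in 12.4% of all 32851 promoter windows of this length, in 4 of 30 windows of the Gst family (13.3%) and in 11 of 30 windows of the NRF2 target list (36.7%), several genes having more than 1 start site. Its first base lay 121 bases before the start site in Gsta3 and 42 bases before it in Gstm5. A match describes the letters only, and a window without one says nothing about elements further away.

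The 16 arrays differed in ways other than treatment. Each array was scaled to the same trimmed mean, and the median signal over all probe sets was 75.6 to 113.9 in the treated arrays and 87.2 to 90.4 in the WCO1 arrays. The median correlation of an array with the other 15 was 0.927, 0.931, 0.945 and 0.959 for N-methylolacrylamide replicates 1 to 4. It was 0.932 for WCO1 replicate 2 against about 0.960 for the other 3 WCO1 arrays. For 2-Chloromethylpyridine hydrochloride replicate 1 it was 0.921, and for CCO3 replicate 2 0.939. WCO1 replicate 2 correlated at 0.949 and 0.951 with treated replicates 1 and 2, against a median of 0.933 within its own group. For 2-Chloromethylpyridine hydrochloride replicate 1 these values were 0.941, 0.943 and 0.917. Ncl, the gene of nucleolin, was at 8.81 to 9.31 in these 4 arrays. In the rest, all CCO3 arrays included, it was at 11.10 to 12.62, and the reason was not tested. The log2 ratio of the 3′ to the 5′ Gapdh probe sets, a measure of RNA integrity, was -0.23, -0.22, 0.00 and 0.21 in the treated arrays and -0.05 to 0.18 in the WCO1 arrays. RNA integrity numbers were 6.4 and 6.6 for treated replicates 3 and 4, with no number given for the other two, and 5.7 to 7.3 for the WCO1 mice. The nuclear RNA Malat1 was at 11.15 to 12.31 (log2) in the 4 treated arrays and at 11.06 in WCO1 replicate 2, against 13.19 to 13.24 in the other WCO1 arrays. Treated replicate 3, WCO1 replicate 2 and 2-Chloromethylpyridine hydrochloride replicate 1 carry a different run code in their labels from the rest, and this code entered the fits reported here as a block.

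**Figure D1:**
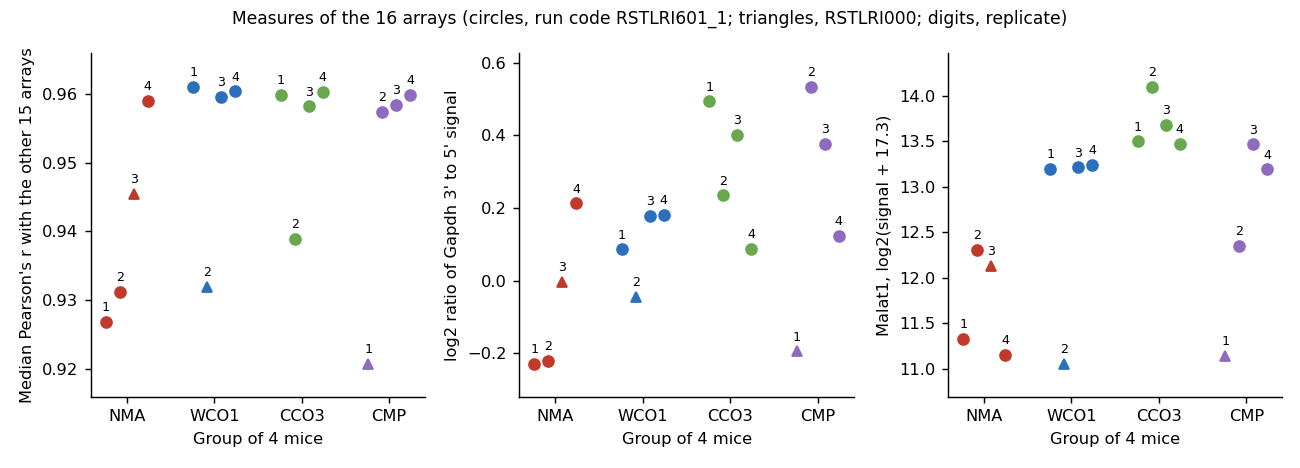
Each point is 1 array of the N-methylolacrylamide (NMA), WCO1, CCO3 and 2-Chloromethylpyridine hydrochloride (CMP) groups, with the replicate number beside it and triangles for the second run code. The panels give the median correlation with the other 15 arrays, the Gapdh 3′ to 5′ log2 ratio and the Malat1 level, and treated replicates 1 and 2 and WCO1 replicate 2 lie low in the first panel at 0.927, 0.931 and 0.932.

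Against the WCO1 controls, 0 of 45037 probe sets passed an adjusted p under 0.05 with a fold of at least 1.5 (limma with Benjamini-Hochberg adjustment), and percent called was 0%. At an unadjusted limma p under 0.05 there were 1188 probe sets higher (2.64%) and 1574 lower (3.49%) after N-methylolacrylamide, together 6.13%. Within the arrays of the first run code alone, 0 passed the adjusted threshold as well. Over 18193 genes, each by its brightest probe set, 508 were higher (2.79%) and 528 lower (2.9%) at an unadjusted p under 0.05. The 4 treated arrays lay wholly above the 4 WCO1 arrays in 263 genes (1.45%) and wholly below them in 192 (1.06%). The median difference of all genes was 0.03 on the log2(signal + 17.3) scale, which is used for every level and difference given here and understates folds of dim genes. With 4 arrays a group, the precision was limited. The median SE of a gene's difference was 0.32, or 0.25 among the 11054 genes above the median level, and the 95% interval was narrow enough to bound a difference within 2-fold for 58.2% of genes. The values of single genes against WCO1 given next are therefore a description, none of which passed the adjusted test.

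Among glutathione transferases, Gsta2, an alpha-class enzyme that conjugates electrophiles and lipid aldehydes, stood furthest from the controls. Its level in the treated mice was 13.34, 13.31, 13.25 and 13.54, and in the WCO1 mice 10.67, 11.40, 12.48 and 12.14. All treated mice lay above all WCO1 mice, the treated mice were close together (13.36 ± 0.12, SD, n = 4) and the controls spread widely (11.67 ± 0.81, SD, n = 4). The difference was 1.69 ± 0.44 (SE, 95% interval 0.80 to 2.59), or 3.23-fold, at an unadjusted limma p of 0.000431 and an adjusted p of 0.693. It was 1.51 without the 3 arrays of these groups that correlated least with the rest by the median r (treated replicates 1 and 2 and WCO1 replicate 2), and ranged from 1.37 to 1.98 when single arrays were left out. The fit without these 3 arrays, here and below, also left out 2-Chloromethylpyridine hydrochloride replicate 1, which enters the block. Of the treated group it kept only replicates 3 and 4, which carry different run codes. A second probe set, 1421041_s_at, which the annotation assigns to Gsta2 together with other genes, differed by 1.88 ± 0.43.

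Gstm2, a mu-class transferase, was at 11.84, 11.98, 12.33 and 11.66 in treated mice and at 10.52, 11.40, 11.30 and 11.09 in WCO1 mice. The groups did not overlap, with a difference of 0.88 ± 0.22 (1.83-fold, limma adjusted p = 0.693). Gstm1, the abundant mu-class enzyme of liver, was at 15.38, 15.12, 15.29 and 15.34 against 14.69, 14.69, 15.09 and 14.90, again without overlap, and differed by 0.44 ± 0.18 (adjusted p = 0.798). Gstm3 was at 12.43, 12.37, 12.57 and 13.32 against 11.04, 10.66, 12.45 and 12.02. Its highest control reached the treated range, and the difference was 1.13 ± 0.36. Mgst3, a membrane-bound transferase, was at 12.32, 12.04, 11.08 and 11.51 against 10.29, 10.86, 11.27 and 10.90, a difference of 0.91 ± 0.28. For Mgst3 it was treated replicates 1 and 2 that lay high, while replicate 3 lay below the highest control. Nearly identical family members can share probes, so values of single mu-class and alpha-class genes are less certain than those of other genes.

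Of 21 measured genes of the Gst family (23 listed), 8 were higher at an unadjusted p under 0.05 and 0 lower, against 2.79% and 2.9% of all genes, and 0 passed the adjusted test. The gene lists were chosen with earlier results of these data known, so list counts here and below are a description. The 8 were Gsta2, Gsta4, Gstm1, Gstm2, Gstm3, Gsto1, Gstt2 and Mgst3. Their family's median difference was 0.44 against 0.03 for all genes, and Mgst2 at -0.55 was the single member below 0. The median was 0.30 without treated replicates 1 and 2 and WCO1 replicate 2, 0.41 with the Gapdh ratio as a covariate and 0.40 after quantile normalisation. Between the water sets, CCO3 minus WCO1, the family's median was -0.42, with 9 of 21 lower at an unadjusted p under 0.05. Gsta3 differed by 0.33 ± 0.29 and Gstm5 by 0.09 ± 0.17, the genes with the response element core in their printed promoters. Averaged over the family relative to the run, treated arrays were at 0.46, 0.37, -0.06 and 0.07 and WCO1 arrays at -0.47, -0.28, -0.15 and -0.22. The 2 treated arrays with the highest family averages were those with the lowest Gapdh ratios and the lowest median correlations, and the part of RNA quality in the family's difference was not tested beyond these settings.

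Ephx1, which hydrolyses epoxides such as glycidamide, was at 14.40, 14.32, 14.03 and 14.14 in treated mice and at 13.48, 13.66, 13.30 and 13.46 in WCO1 mice. The lowest treated mouse lay above the highest control, and the difference was 0.75 ± 0.19 (95% interval 0.36 to 1.14), or 1.68-fold, at an unadjusted limma p of 0.000346 and an adjusted p of 0.693. Abcc3, the transporter that exports conjugates from hepatocytes into blood, was at 13.84, 13.78, 13.70 and 13.63 against 13.24, 13.17, 13.19 and 13.20. Both groups were tight and did not overlap, and the difference was 0.54 ± 0.16 (adjusted p = 0.741). Nqo1, the quinone reductase often used as the readout of NRF2, was at 9.33, 8.82, 9.35 and 9.08 against 8.10, 9.0, 8.89 and 8.57. Here 1 treated array lay among the controls, and the difference was 0.51 ± 0.25.

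The NRF2 target list, which shares 7 genes with the Gst family, had 25 of 28 members measured. At an unadjusted p under 0.05, 10 were higher and 0 lower, against 2.79% and 2.9% of all genes, 0 passed the adjusted test, and 23 of 25 differences were above 0 where 53.1% of all genes were. The list median was 0.43, and it stayed at 0.43 without the 3 arrays named above. The 5 members whose groups did not overlap, all higher, were Abcc3, Ephx1, Gsta2, Gstm1 and Gstm2, against 1.45% of all genes. Other members lay closer to the controls. Gclc, the catalytic subunit of the first enzyme of glutathione synthesis, was at 13.25, 13.38, 13.42 and 13.84 against 13.67, 12.55, 13.44 and 13.69, a difference of 0.14 ± 0.29 (95% interval -0.44 to 0.71). Its modifier subunit Gclm differed by -0.01 ± 0.17, thioredoxin reductase Txnrd1 by 0.03 ± 0.17 and sulfiredoxin Srxn1 by 0.10 ± 0.31. Glutathione reductase Gsr differed by 0.47 ± 0.21 and was the single higher member of the 13 genes of glutathione supply, whose median was 0.10. The list average per array, relative to the run, was 0.24, 0.19, 0.20 and 0.20 in the treated mice and -0.49, -0.26, 0.00 and -0.19 in the WCO1 mice, without overlap. After 2-Chloromethylpyridine hydrochloride it was 0.28, 0.22, 0.02 and 0.14, also above all WCO1 mice. Between the 2 chemicals the list median was 0.05, so this separation from WCO1 was not particular to N-methylolacrylamide.

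**Figure D2:**
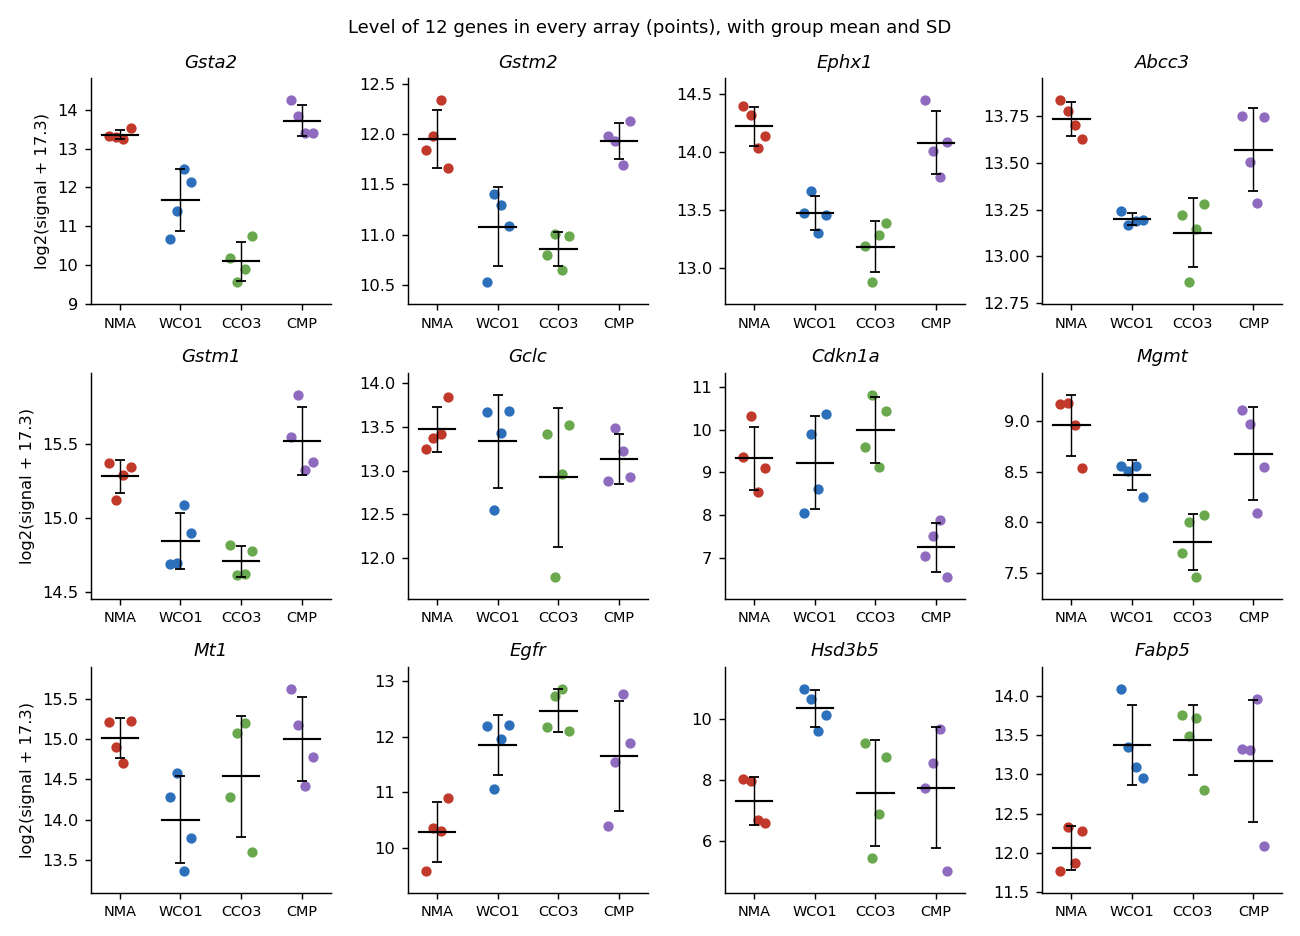
Levels of 12 genes on the log2(signal + 17.3) scale in every array of the N-methylolacrylamide (NMA), WCO1, CCO3 and 2-Chloromethylpyridine hydrochloride (CMP) groups, with the group mean as a line and the SD as a bar (n = 4 each). Gsta2 lies between 13.25 and 13.54 in the treated arrays and between 10.67 and 12.48 in the WCO1 arrays, while the Cdkn1a and Gclc groups overlap.

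**Figure D3:**
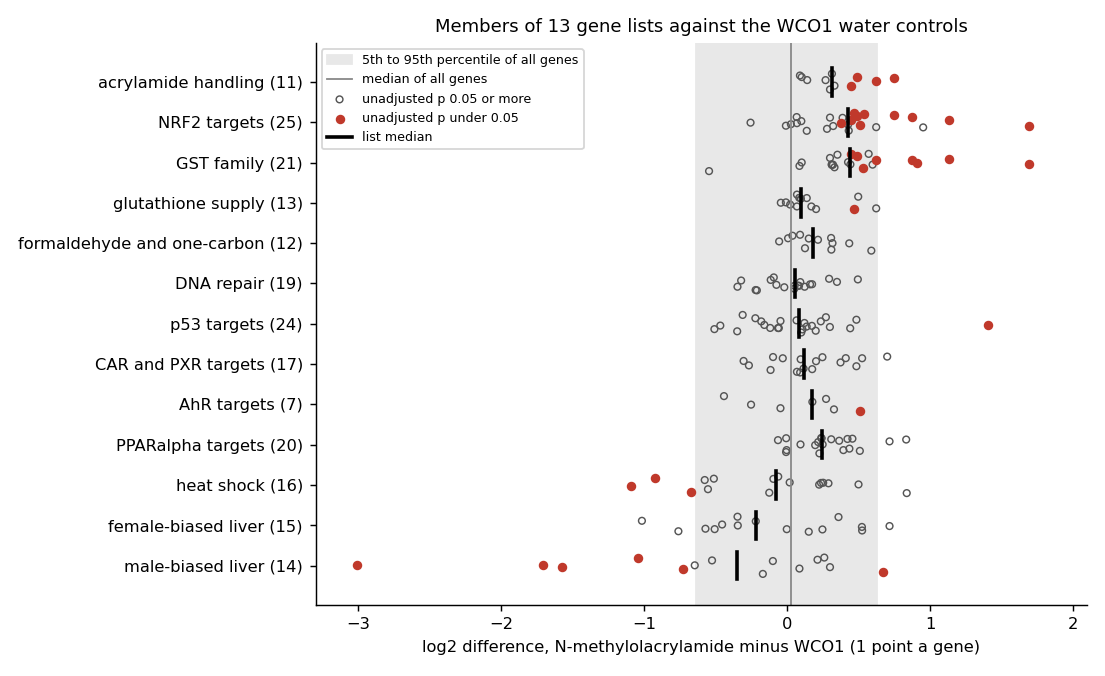
Each point is the log2 difference of 1 gene, N-methylolacrylamide minus WCO1, for 13 gene lists with the number of measured members in brackets. Red points have an unadjusted limma p under 0.05, black ticks are list medians (0.43 for NRF2 targets, 0.44 for the Gst family, -0.35 for male-biased genes), and the grey band spans the 5th to 95th percentile of all genes.

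Genes that handle acrylamide and its epoxide include the oxidase, hydrolases and transferases, and 11 of 12 were measured. All 11 differences lay between 0.09 and 0.75, with a median of 0.31. At an unadjusted p under 0.05, 4 were higher (Ephx1, Gstt2, Gsta4 and Gstm1), against 2.79% of all genes, and 0 lower. Gstt2, Gsta4 and Gstm1 were also counted in the Gst family, and Ephx1 and Gstm1 among the NRF2 targets. These lists are therefore not independent. Cyp2e1, which forms glycidamide, was at 16.16, 15.74, 15.60 and 15.72 in treated mice and at 15.69, 15.83, 15.66 and 15.68 in WCO1 mice. The groups overlapped, and the difference was 0.09 ± 0.18 (95% interval -0.27 to 0.45). For formaldehyde and one-carbon metabolism, 0 of 12 genes reached an unadjusted p under 0.05, with a median of 0.18. Adh5, the glutathione-dependent formaldehyde dehydrogenase, differed by 0.01 ± 0.13 (95% interval -0.26 to 0.27), and mitochondrial aldehyde dehydrogenase Aldh2 by 0.15 ± 0.16. The folate enzyme Mthfd2, at 0.59, had the list's largest difference. Of the 21 readout genes, the formaldehyde-related Esd had no probe set of its own in the annotation used.

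Genes of the DNA damage response were examined next. Of 24 p53 targets 1 was higher and 0 were lower at an unadjusted p under 0.05, a share near the 2.79% and 2.9% of all genes, with a median of 0.08 that was -0.025 without the 3 arrays named above. Cdkn1a, the p53-induced cell cycle inhibitor p21, was at 9.36, 10.31, 8.53 and 9.11 in treated mice and at 8.04, 9.91, 8.61 and 10.37 in WCO1 mice. The groups overlapped throughout, and the difference of 0.10 ± 0.72 had a 95% interval from -1.36 to 1.55. Mdm2 differed by -0.05 ± 0.37 and Ccng1 by -0.47 ± 0.28. Eda2r, a death receptor of the tumour necrosis factor family and a p53 target, was the member that was higher, at 6.58, 6.22, 5.23 and 5.83 against 4.89, 4.36, 4.60 and 4.40 (1.40 ± 0.38, limma adjusted p = 0.704). These are dim values, the groups did not overlap, and the difference from the CCO3 mice was -0.31. In the DNA repair list, 0 of 19 reached an unadjusted p under 0.05 (median 0.05). Its largest difference was that of Mgmt, which removes alkyl groups from guanine. Mgmt was at 9.17, 9.18, 8.96 and 8.53 against 8.55, 8.51, 8.56 and 8.25, with 1 treated mouse within the control range and a difference of 0.49 ± 0.28.

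Targets of the nuclear receptors that respond to many liver carcinogens gave few differences from WCO1. Among 17 targets of CAR and PXR 0 reached an unadjusted p under 0.05 (median 0.11). Their readouts Cyp2b10 and Cyp3a11 differed by 0.70 ± 0.52 and by -0.03 ± 0.16, and the first was 0.24 without WCO1 replicate 1, 0.39 without treated replicate 1 and 1.02 without treated replicate 3. Among 20 targets of PPARalpha, the receptor behind peroxisome proliferation, 0 reached it (median 0.24), and the fatty acid hydroxylase Cyp4a14 differed by 0.39 ± 0.76. Among 7 targets of the aryl hydrocarbon receptor, Nqo1 was the single higher gene, and Cyp1a1 differed by 0.18 ± 0.28. Metallothionein Mt1, which binds zinc and copper, was at 15.21, 14.90, 14.71 and 15.22 against 14.29, 14.58, 13.36 and 13.77. The groups did not overlap (1.01 ± 0.48, limma adjusted p = 0.798), and Mt2 differed by 1.00 ± 0.70 with overlapping groups. The other 10 metal-handling genes had no member at an unadjusted p under 0.05.

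Several genes known to be expressed more in male than in female mouse liver were lower in the treated females than in the WCO1 females, though not as a list when set against CCO3. Hsd3b5, a male-biased steroid dehydrogenase, was at 8.05, 7.95, 6.69 and 6.60 in treated mice and at 10.98, 10.64, 9.61 and 10.11 in WCO1 mice. All treated mice lay below all WCO1 mice, and the difference was -3.01 ± 0.94, or 8.07-fold lower, at an unadjusted limma p of 0.00261 and an adjusted p of 0.798. The difference from CCO3 was -0.21, and the CCO3 mice spread over a range that held the treated mice. The untreated CCO3 set itself differed from WCO1 by -2.81 for Hsd3b5. Egfr, the epidermal growth factor receptor, was at 9.59, 10.37, 10.31 and 10.89 against 12.20, 11.07, 11.97 and 12.21, without overlap. Its difference was -1.57 ± 0.45 (2.98-fold lower, adjusted p = 0.704) on the brightest of 7 probe sets, and the 7 ranged from -1.57 to 0.40. C8a, a chain of complement component 8, differed by -1.04 ± 0.31, the bile acid transporter Slco1a1 by -1.71 ± 0.70 and the oxysterol hydroxylase Cyp7b1 by -0.73 ± 0.35. Against CCO3, C8a differed by -1.59 and Cyp7b1 by 0.27. Of 14 measured male-biased genes (22 listed) 5 were lower and 1 was higher at an unadjusted p under 0.05, against 2.9% and 2.79% of all genes, and 0 passed the adjusted test. The higher one was Cyp2d9 at 0.67. The list median was -0.35, and -0.40 without the 3 arrays named above. The list average was -0.32, -0.23, -0.31 and -0.46 in the treated arrays and 0.58, 0.01, 0.06 and 0.31 in the WCO1 arrays. Against CCO3 the list median was 0.22, with 8 of 14 above 0, and CCO3 against WCO1 gave -0.34, so the list's direction depended on the water set. Among 15 female-biased genes 0 reached an unadjusted p under 0.05 (median -0.22).

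Of 16 heat shock genes 3 were lower and 0 higher at an unadjusted p under 0.05, against 2.9% and 2.79% of all genes, with a list median of -0.08. They were the chaperones Hsp90aa1 (-0.93 ± 0.43) and Hspa4l (-1.09 ± 0.52) and the co-chaperone Chordc1 (-0.67 ± 0.32). The Hspa4l difference was -0.48 without treated replicate 1, and a dim Hsp90aa1 probe set differed by 1.28, in the other direction. Inducible Hspa1a differed in the other direction by 0.84. Among 22 cell cycle genes the mitotic checkpoint kinase Bub1 was lower at -0.91 and 0 were higher, with a median of 0.04. The proliferation marker Mki67 differed by -0.41 ± 0.62, and Ccnd1, the G1 cyclin, by -0.36 ± 0.34. Over 13 further lists of liver function, stress and metabolism, 234 members were measured. At an unadjusted p under 0.05, 1 was higher and 5 were lower, against 2.79% and 2.9% of all genes. List medians ran from -0.16 for cholesterol synthesis to 0.09 for pericentral genes. The cholesterol synthesis median was 0.36 without the 3 arrays named above, and that of fatty acid synthesis, -0.09, became 0.14.

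Marker genes of liver and other cells were compared in 10 lists. Of 116 measured markers 0 reached an unadjusted p under 0.05, 3 had groups that did not overlap, all higher after treatment (1 each of endothelial, stellate and pancreas markers, against 1.45% of all genes), and list medians ran from -0.09 for lymphocytes to 0.19 for erythroid cells. Of the hepatocyte markers 14 of 16 were measured and all 14 lay above the median level of the array. Their summed signal was 661035 to 837238 in treated arrays and 647164 to 741389 in WCO1 arrays. Neutrophil markers summed to at most 838 in treated and 884 in WCO1 arrays. In whole tissue, fewer cells of a type and less RNA per cell cannot be told apart.

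**Figure D4:**
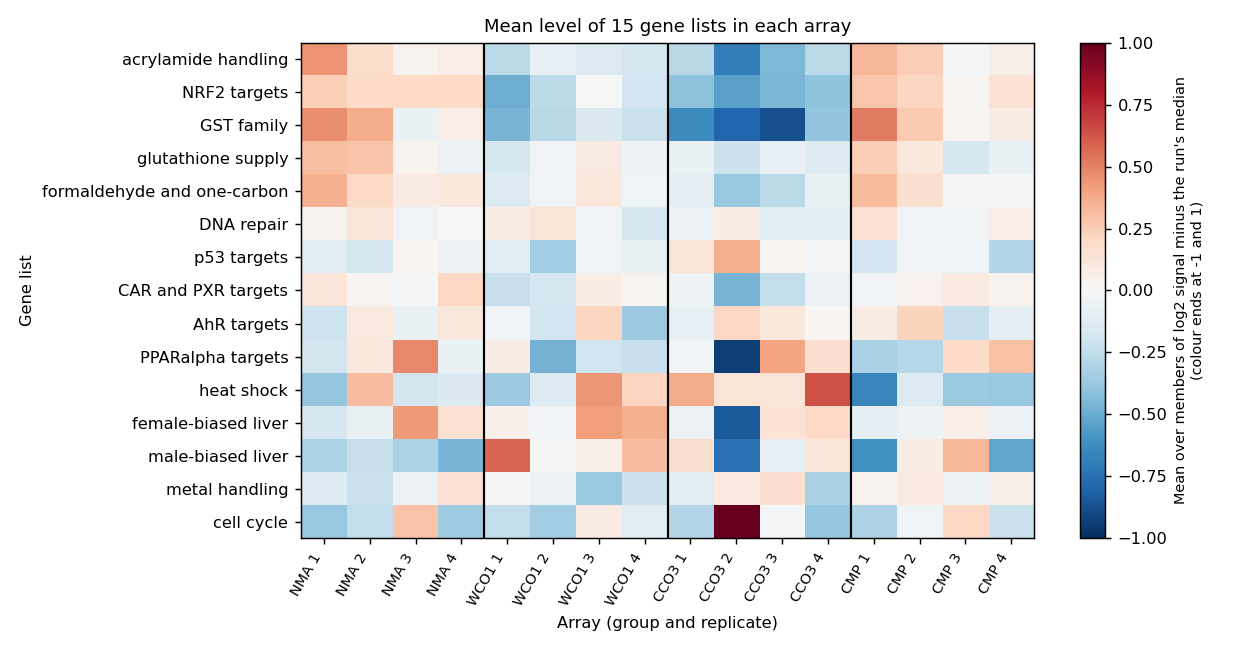
Heat map of the average level of 15 gene lists in each of the 16 arrays, as the mean over members of the log2 level minus the run median, with the colour scale ending at -1 and 1. The NRF2 row is 0.19 to 0.24 in the 4 treated (NMA) arrays and -0.49 to 0.00 in the WCO1 arrays, and the male-biased row is -0.46 to -0.23 against 0.01 to 0.58.

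Genes named by size among those whose groups did not overlap came from many functions. Beside Gsta2, the largest higher differences were those of Ooep (1.73 ± 0.54), known for its role in the egg cortex, and Misp (1.66 ± 0.46), an actin-binding protein of the mitotic spindle. Ooep was at 7.44, 6.25, 7.69 and 6.66 against 5.08, 5.63, 5.25 and 5.16, levels near the lower part of the array's range. Krt78 (1.42), Fn3krp (1.23), Ggn (1.23), Gpr176 (1.14), Clec2d (1.12) and Serpinb1a (1.02) were further genes of this kind above the median level of all probe sets in the treated group. Grrp1 (1.46) and Eda2r lay below that level. Without WCO1 replicate 2 the Ggn difference was 0.67 and that of Clec2d 0.56. Lower genes beside Hsd3b5 and Egfr were Ctsw (-1.61), a protease of cytotoxic lymphocytes, Pms1 (-1.41), a mismatch repair homologue, and Fabp5 (-1.32), a fatty acid carrier. Fabp5 was at 11.77, 12.33, 11.86 and 12.28 in treated mice and at 14.10, 13.35, 13.09 and 12.95 in WCO1 mice. It was the brighter of these, with a gap between the groups, and a difference of -1.32 ± 0.38. Carmil1 (-1.12), Map3k8 (-1.11), Pfkfb3 (-0.96) and Ntn3 (-0.92) were also below. The lowest unadjusted limma p of a named gene was 1.22e-05 for Serpinb9d, at 4.34, 4.35, 4.60 and 4.53 against 5.70, 6.19, 5.42 and 4.86 (-1.09 ± 0.22, adjusted p = 0.274). The lowest over all probe sets belonged to 1424245_at, which carries no gene name in the annotation used. It was at 11.82, 11.88, 11.51 and 11.11 against 9.70, 9.88, 10.26 and 9.99. The gap between the groups was wide, and the difference was 1.62 ± 0.29 (3.08-fold, adjusted p = 0.0685).

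The comparison with 2-Chloromethylpyridine hydrochloride asks what sets 1 gavaged chemical in water apart from another. Of 45037 probe sets 1 passed the adjusted test (0.00222%), and it was higher after N-methylolacrylamide. At an unadjusted p under 0.05, 1414 were higher (3.14%) and 2523 lower (5.6%). The called probe set was that of Baiap2, an adaptor that links membrane signals to actin, at 9.74, 9.58, 9.05 and 9.57 after N-methylolacrylamide and at 8.06, 8.62, 8.66 and 7.97 after 2-Chloromethylpyridine hydrochloride. Baiap2 was 2.23-fold higher (1.16 ± 0.20, 95% interval 0.76 to 1.55, limma adjusted p = 0.0214), without overlap. The other 3 Baiap2 probe sets differed by -0.14 to 0.22. The call was lost without N-methylolacrylamide replicate 1 or 2, without 2-Chloromethylpyridine hydrochloride replicate 1 or 4, and without the arrays that stood apart. On the called probe set, N-methylolacrylamide differed from WCO1 by only 0.17 and from CCO3 by 0.50, with no call against either water set. In the Gst family the differences between the chemicals ran from -1.0 (Gstm3) to 0.40, with 0 called and a median of 0.07. Gsta2 was at 14.25, 13.85, 13.40 and 13.40 after 2-Chloromethylpyridine hydrochloride, a difference of -0.36 ± 0.44 (95% interval -1.26 to 0.53). For Gstm2 it was 0.02 (95% interval -0.42 to 0.46) and for Ephx1 0.14 (95% interval -0.25 to 0.53). Gstm3 was lower after N-methylolacrylamide than after 2-Chloromethylpyridine hydrochloride by an unadjusted p of 0.008 (-1.0 ± 0.36, adjusted p = 0.528, limma). Cdkn1a was at 7.03, 7.50, 7.89 and 6.55 after 2-Chloromethylpyridine hydrochloride, below all 4 N-methylolacrylamide mice, with a difference of 2.09 ± 0.72 (adjusted p = 0.522). The list median furthest from 0 was that of the circadian clock, at -0.75. At an unadjusted p under 0.05, 4 of its 19 genes were higher and 7 lower, against 593 and 800 of 18193 genes. For fatty acid synthesis 5 of 18 were lower and 0 higher, with a median of -0.20. The cause of these list differences was not tested. The doses differed, at 50 and 250 mg/kg, so the values of this comparison do not rank the chemicals.

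Against the second water set, CCO3, 179 probe sets passed the adjusted test (0.397%), 82 higher (0.182%) and 97 lower (0.215%). The labels do not say which water set belongs to which chemical. The comparisons with WCO1 and with CCO3 share the treated arrays, so their values are given side by side and are not independent. At the level of genes, 52 were higher (0.286%) and 29 lower (0.159%). In the Gst family 8 of 21 were higher and 0 lower: Gsta2, Gsta4, Gstm2, Gstm4, Gstm6, Gsto1, Gstt3 and Mgst3. Gsta2 was at 10.18, 9.54, 9.89 and 10.74 in CCO3 mice, and was 9.29-fold higher after N-methylolacrylamide (3.22 ± 0.45, limma adjusted p = 8.86e-05). The other 7 rose by 0.97 (Gstm4) to 1.54 (Gstt3). Of the NRF2 targets 6 of 25 rose, Ephx1 by 1.06 (adjusted p = 0.0104) and Abcc3 by 0.65 among them. Mgmt rose by 1.23 (adjusted p = 0.0388), with all treated values above the CCO3 values of 7.70, 8.00, 7.46 and 8.07. The carboxylesterase Ces2e rose by 1.42 (adjusted p = 0.00755), the mitochondrial persulfide dioxygenase Ethe1 by 1.68 and the phosphatase inhibitor Ppp1r1b by 2.19. For Cyp2b10, the brightest probe set differed by 2.07 with an adjusted p of 0.0549, and a dimmer one was called at 2.30. The unnamed 1424245_at rose by 2.71 ± 0.29 (adjusted p = 3.62e-07).

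Serpina7, the thyroxine-binding globulin, was at 8.00, 7.88, 9.16 and 8.02 in treated mice, among the genes that were lower against CCO3, and at 10.54, 12.13, 12.31 and 10.43 in CCO3 mice. It fell by 3.32 ± 0.58 (limma adjusted p = 0.00755), without overlap. Egfr fell by 2.20 ± 0.45 (adjusted p = 0.0279) and C8a by 1.59 (adjusted p = 0.0194). The splicing regulator Rbm25 fell by 1.34 on its brightest probe set. For the mRNA export factor Thoc2, the splicing-associated Scaf11 and the centrosomal scaffold Akap9, dimmer probe sets were called at -2.39, -2.39 and -2.38, while the brightest differed by -1.83, -0.57 and -0.45 and were not called. The nuclear RNA Malat1 was at 13.47 to 14.10 in the CCO3 arrays against 11.15 to 12.31 in the treated arrays, and its relation to these calls was not tested. An immunoglobulin variable segment, Igkv8-30, also fell, by 3.78, from CCO3 values of 10.19, 14.38, 9.99 and 7.27, of which replicate 2 was far above the rest. In that CCO3 array the summed neutrophil markers reached 46100 against 534 to 838 in the treated arrays. Its Kupffer cell and macrophage markers reached 139430 against 18809 to 31576, and its lymphocyte markers 7551 against 907 to 1230. The number of calls rested on single arrays. Without CCO3 replicate 2 there were 3 calls, Gsta2, 1421041_s_at and 1424245_at, and the same 3 were called with the Gapdh ratio as a covariate. Only these 3 and Klhl22 of the 179 were among the 8 calls made without treated replicates 1 and 2, WCO1 replicate 2 and 2-Chloromethylpyridine hydrochloride replicate 1. There were 6 calls without treated replicate 1 and 5 without replicate 2, but 1774 without replicate 3 and 2518 without replicate 4. Without CCO3 replicates 1, 3 and 4 in turn there were 29, 7 and 157. The sign of all 179 differences was the same without the 4 arrays named. The 179 were picked from fits that held these arrays, and 159 of them had groups that did not overlap. Their sign was therefore largely fixed in advance, and its sameness adds no support.

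The water sets themselves were compared. Between CCO3 and WCO1, 0 of 45037 probe sets passed the adjusted limma test (0%), while 1956 were higher (4.34%) and 770 lower (1.71%) in CCO3 at an unadjusted p under 0.05. For CCO3 minus WCO1 the Gst family had a median of -0.42, with 19 of 21 below 0. By the same unadjusted p, 9 of the 21 were lower and 0 higher, against 375 lower and 739 higher of 18193 genes. Of the NRF2 targets 20 of 25 were below 0, and 6 were lower by that p. Gsta2 was 1.52 ± 0.45 lower in CCO3 than in WCO1 on the log2 scale (adjusted p = 0.733), so the size of the Gsta2 difference depended on the water set, while the treated mice lay above all 8 water mice. For Gstm2, Ephx1, Gstm1, Abcc3 and 1424245_at the 4 treated mice likewise lay above all 8. The share of all genes that did so is not given here.

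**Figure D5:**
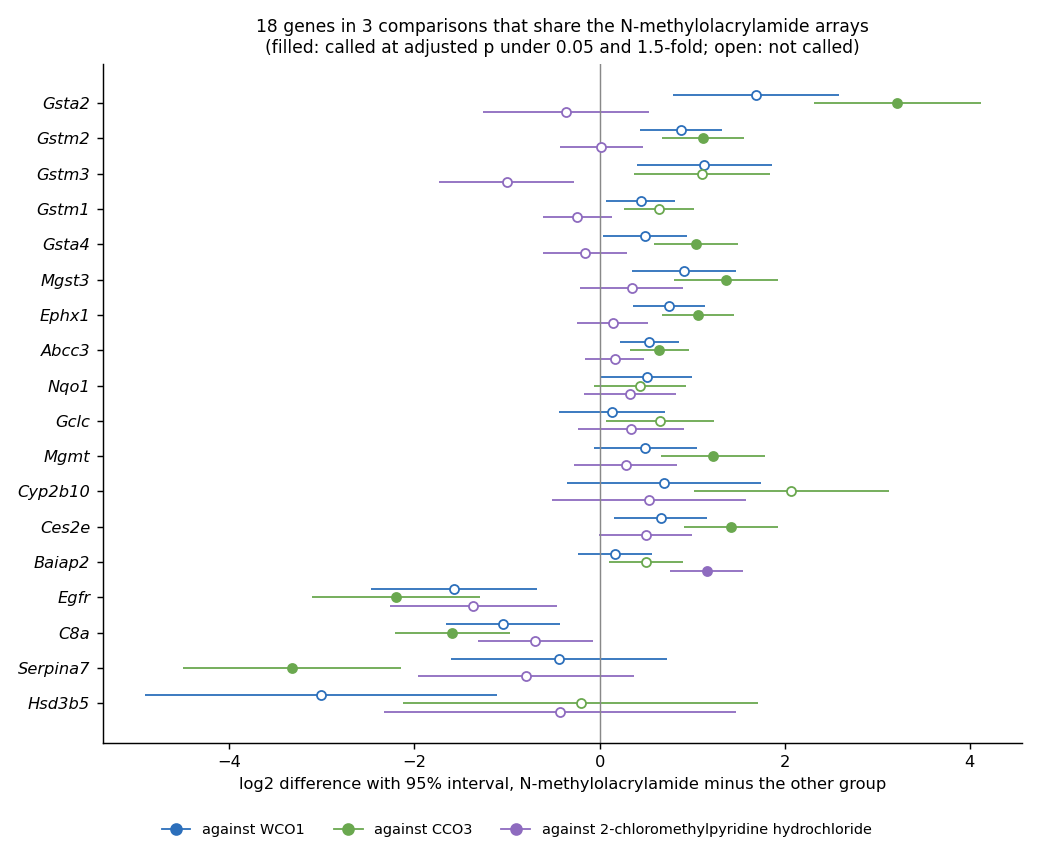
Log2 differences with 95% intervals for 18 genes in 3 comparisons that share the N-methylolacrylamide arrays, against WCO1, CCO3 and 2-Chloromethylpyridine hydrochloride, with filled points called and open points not called. Gsta2 is 1.69 above WCO1, 3.22 above CCO3 and -0.36 from 2-Chloromethylpyridine hydrochloride, and no gene is called against WCO1.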

How the data were processed

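Liver RNA was hybridised to Affymetrix Mouse430_2 arrays (1 colour, biotin), and the deposited values are probe set signals, linear intensity that the authors made with GCOS 1.0 per the submitters' processing notes. Every array had a mean of 500 after trimming 2% at each end, and detection calls were not used here. Groups came from the labels, 1 mouse an array. The value log2(signal + 17.3), the pseudocount being a 20th percentile of signal, was fitted with limma 3.58.1 (R 4.3.3) over the 54 arrays and 13 groups of the run, with run code as block and eBayes. P-values were two-sided and Benjamini-Hochberg adjusted over 45037 probe sets, with 64 control probe sets left out. They set a difference against the spread between mice within groups, estimated over all 54 arrays. A call needed an adjusted p under 0.05 and 1.5-fold. Genes were taken from the 34945 probe sets with 1 symbol, by the brightest. Named genes were set readouts, the largest non-overlapping differences, the lowest p-values, up to 3 members a list, and called genes of the other comparisons, and genes outside this rule (the transferases and NRF2 targets given for their role, Klhl22, Kif14, 1421041_s_at and 1424245_at) were chosen after their values were seen. Members and lists were chosen with earlier results of these data known. Promoters came from RefSeq (GRCm38.p6). The fit was tested on simulated data. Summaries and figures used Python 3.11.15 with numpy 2.4.6, pandas 2.3.3, scipy 1.17.1 and matplotlib 3.10.9, and the R package data.table in version 1.17.8. Alternatives were other arrays, no block, 1 run code, quantile normalisation, other pseudocounts, a filter on dim probe sets, 1 probe set a gene, a Gapdh covariate, an intensity trend, pooled water sets and single arrays left out. Leaving out the arrays that stood apart was added after the data were seen.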

Additional observations from a re-analysis of the deposited data

Results flagged for a closer look

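In 9 of 144 groups of 4 arrays checked (6.25%), 1 array lay far from the other 3, and chance gives about 1 in 20. The causes were not tested. WCO1 replicate 2 was the array in 4 of them, with a median correlation of 0.932 (nearest 0.960), Malat1 at 11.06 (nearest 13.19), Ggn at 4.86 (nearest 6.70) and Clec2d at 8.30 (nearest 10.13). WCO1 replicate 1 was low in Srxn1 at 9.15 (nearest 9.68) and in Cyp2b10 at 9.93 (nearest 11.68). Mgmt in WCO1 replicate 4 was at 8.25 (nearest 8.51). The median correlation was 0.921 for 2-Chloromethylpyridine hydrochloride replicate 1 (nearest 0.957) and 0.939 for CCO3 replicate 2 (nearest 0.958).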

How the results depend on the processing

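No paired analysis was possible because the replicate numbers follow accession order and pair no mice. Against WCO1 the count of calls, 0, became 1 with 4 times the pseudocount, without dim probe sets and with an intensity trend (1424245_at each time), 1 without the arrays that stood apart (Kif14), 8 with pooled water sets (6 higher: Gsta2, 1421041_s_at, Gstm2, Ephx1, 1424245_at and Klhl22), and 0 to 3 with single arrays left out (3 without treated replicate 4, 1 without WCO1 replicate 2 or 4). The 2762 at unadjusted p under 0.05 became 6803 within the first run code, 1780 without dim probe sets, 1096 with 1 probe set a gene, 6715 with pooled water sets, 1596 without the arrays that stood apart, and 1594 to 5445 with single arrays left out. Against 2-Chloromethylpyridine hydrochloride 1 call became 0 with only the 2 groups, without the block and with the Gapdh covariate, 38 within the first run code, 3 without the arrays that stood apart (Baiap2 not among them), and 0 to 10 with single arrays left out. Against CCO3 179 calls became 0 with only the 2 groups, 23 without the block, 2051 within the first run code, 118 after quantile normalisation, 509 with 4 times the pseudocount, 1261 without dim probe sets, 3 with the Gapdh covariate, 439 with an intensity trend, 8 without the arrays that stood apart, and 3 to 2518 with single arrays left out. CCO3 against WCO1 gave 0 to 1.

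Medians of 15 of the 38 lists were followed through every setting. They moved for the aryl hydrocarbon receptor (-0.056 without the arrays that stood apart), with pooled water sets (Gst family 0.69, acrylamide handling 0.49, formaldehyde 0.32, male-biased -0.10), within the first run code (cell cycle -0.39, p53 -0.090) and without dim probe sets (cell cycle 0.30). With single arrays left out the cell cycle median reached -0.30 and that of p53 -0.079. Over all 38 lists, 15 medians changed sign without the arrays that stood apart, among them cholesterol synthesis (-0.16 to 0.36) and fatty acid synthesis (-0.09 to 0.14). Of 1274 gene values in 64 genes, 1229 kept direction and side of the threshold, 9 passed it and 36, in 11 genes with small differences, changed sign. Signs turned for Adh5 (-0.14) and Mdm2 (0.069) after quantile normalisation; within the first run code for Cyp3a11 (0.0025), Cyp4a14 (-0.23), Gclc (-0.11) and Txnrd1 (-0.12); with pooled water sets for Cdkn1a (-0.25), Cyp3a11 (0.0056) and Gclm (0.17); and without the arrays that stood apart for Cdkn1a (-0.036), Cyp1a1 (-0.056), Cyp3a11 (0.049) and Gclm (0.25). With single arrays left out, Cyp2e1 ran from -0.025 to 0.15, Gclc from -0.036 to 0.25, Gclm from -0.10 to 0.11, Txnrd1 from -0.077 to 0.13, Srxn1 from -0.057 to 0.23, Adh5 from -0.024 to 0.054, Cdkn1a from -0.32 to 0.46, Mdm2 from -0.42 to 0.17, Cyp3a11 from -0.078 to 0.029 and Cyp4a14 from -0.11 to 0.63. The cause of these shifts was not tested. With 4 mice a group and an SE of about 0.3, differences under 2-fold were often not detectable, and larger ones also went uncalled. Against WCO1, Gsta2 at a log2 difference of 1.69 and Hsd3b5 at -3.01 did not pass the adjusted limma test.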
